A study of Mus musculus with 9 samples.

Results

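The genes described here are the netrin, semaphorin, slit and ephrin families of secreted and membrane-bound guidance cues and their receptors, in mouse mammary epithelial cells with and without an edited *Vangl2* gene. The rule that picks the members reads gene symbols and no measured value, but it was chosen with earlier results of these data known. Of the 55228 genes in the count table, 72 belong to these families. They are 6 netrin ligands, 6 netrin receptors, 3 slits, 4 Robo receptors, 20 semaphorins, 9 plexins, 2 neuropilins, 8 ephrins and 14 Eph receptors. RNA was sequenced from 9 cultures of HC11, an established mouse mammary epithelial cell line, 3 each of 3 lines. *WT* is the parental line, and *KD1* and *KD2* carry CRISPR/Cas9 edits of *Vangl2*, a transmembrane protein of planar cell polarity, made with different guides and a repair template holding stop codons. Each *KD* line grew from a single colony and so is 1 clone, while *WT* was not cloned, so that an effect of the edit and a difference between clones cannot be told apart. The labels call both edited lines knockouts, while the study's methods speak of a knockout of the gene and name the lines *KD*. All lines were kept undifferentiated, in medium with insulin (5 µg/mL), EGF (10 ng/mL) and 10% FBS. The labels number the cultures of a line without saying how they were grown. The study's figure legends speak of biological replicates, but its RNA-sequencing methods do not describe the replicates. The p-values therefore measure the spread between these cultures only.

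Guidance cues were first known for steering growing axons, and the same ligands and receptors act in epithelia, blood vessels and immune cells. Netrins are laminin-like proteins read by DCC, neogenin and the UNC5 receptors, and slits are large secreted proteins read by the Robo receptors. Semaphorins signal through plexins, with neuropilins as ligand-binding partners for most secreted (class 3) members. Ephrins are tethered to the membrane and bind Eph receptor tyrosine kinases on neighbouring cells, with signals running into both cells. In the mammary gland, netrin 1 with neogenin and slit 2 with ROBO1 are known for holding the luminal and basal layers of the ducts and end buds together.

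Promoter windows are given for the 4 class 3 semaphorins that share an interval of chromosome 5, since they are compared with each other below, and for *Nrp1*, *Plxna2* and *Unc5c*, receptors whose level differed widely between the lines. *Ntn1* has no window in the table used. Each window runs from 250 bases before to 50 bases after a RefSeq start on the plus strand of GRCm38.p6, 5′ to 3′, and CG dinucleotides are in capitals. In order, the windows are chr5:12382916-12383215, chr5:13396534-13396833, chr5:14025026-14025325, chr5:17574566-17574865, chr8:128358823-128359122, chr1:194619579-194619878 and chr3:141465314-141465613.
*Sema3d*: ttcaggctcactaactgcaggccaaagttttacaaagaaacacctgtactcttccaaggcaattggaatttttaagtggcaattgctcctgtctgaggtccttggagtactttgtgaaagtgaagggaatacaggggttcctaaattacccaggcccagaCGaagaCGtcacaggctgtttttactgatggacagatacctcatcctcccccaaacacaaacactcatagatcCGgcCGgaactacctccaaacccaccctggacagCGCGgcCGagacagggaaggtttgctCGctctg
*Sema3a*: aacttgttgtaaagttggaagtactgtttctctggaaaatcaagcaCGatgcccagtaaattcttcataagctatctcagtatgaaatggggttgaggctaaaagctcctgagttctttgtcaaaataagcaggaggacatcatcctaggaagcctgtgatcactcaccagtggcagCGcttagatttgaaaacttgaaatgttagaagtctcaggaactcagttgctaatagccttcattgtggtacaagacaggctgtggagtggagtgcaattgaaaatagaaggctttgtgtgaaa
*Sema3e*: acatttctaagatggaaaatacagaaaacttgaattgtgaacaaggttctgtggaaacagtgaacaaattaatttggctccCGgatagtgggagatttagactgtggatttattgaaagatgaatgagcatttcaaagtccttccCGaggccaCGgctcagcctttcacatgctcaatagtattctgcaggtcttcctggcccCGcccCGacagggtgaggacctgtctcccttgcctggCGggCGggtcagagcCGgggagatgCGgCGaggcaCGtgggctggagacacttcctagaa
*Sema3c*: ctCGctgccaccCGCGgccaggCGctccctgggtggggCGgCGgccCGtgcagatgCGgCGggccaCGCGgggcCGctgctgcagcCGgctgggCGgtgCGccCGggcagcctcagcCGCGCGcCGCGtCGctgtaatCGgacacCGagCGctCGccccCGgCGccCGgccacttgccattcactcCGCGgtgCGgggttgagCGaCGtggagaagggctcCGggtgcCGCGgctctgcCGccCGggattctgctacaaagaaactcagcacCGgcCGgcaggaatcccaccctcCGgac
*Nrp1*: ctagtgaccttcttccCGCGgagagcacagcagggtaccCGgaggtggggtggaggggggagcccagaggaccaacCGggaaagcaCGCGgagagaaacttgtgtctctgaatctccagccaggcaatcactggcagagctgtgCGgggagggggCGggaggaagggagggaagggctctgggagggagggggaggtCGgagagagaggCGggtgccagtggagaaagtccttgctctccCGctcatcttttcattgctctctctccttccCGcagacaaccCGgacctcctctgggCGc
*Plxna2*: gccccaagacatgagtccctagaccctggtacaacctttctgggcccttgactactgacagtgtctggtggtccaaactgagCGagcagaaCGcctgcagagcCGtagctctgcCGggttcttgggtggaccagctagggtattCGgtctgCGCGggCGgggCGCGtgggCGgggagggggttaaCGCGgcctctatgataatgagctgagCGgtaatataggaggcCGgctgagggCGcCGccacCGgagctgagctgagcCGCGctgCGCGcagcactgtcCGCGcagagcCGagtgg
*Unc5c*: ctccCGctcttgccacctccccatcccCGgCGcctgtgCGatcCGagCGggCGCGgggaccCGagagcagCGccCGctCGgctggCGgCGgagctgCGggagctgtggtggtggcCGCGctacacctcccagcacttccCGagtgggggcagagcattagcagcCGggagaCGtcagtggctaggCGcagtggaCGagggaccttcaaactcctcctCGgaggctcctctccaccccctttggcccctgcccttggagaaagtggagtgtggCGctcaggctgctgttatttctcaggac
CG dinucleotides numbered 8 in the *Sema3d* window, 2 in that of *Sema3a*, 11 in that of *Sema3e*, 42 in that of *Sema3c*, 14 in that of *Nrp1*, 25 in that of *Plxna2* and 24 in that of *Unc5c*. The median was 7 over all 32851 windows of the RefSeq table and 19.5 over the 78 windows of the 62 members that have one. The windows of *Sema3a*, *Sema3c*, *Nrp1*, *Plxna2* and *Unc5c* begin within the GENCODE gene, so that its annotated start lies upstream, outside them. The *Sema3d* window ends at 12383215, before the GENCODE gene begins at 12383385. Among the 7 windows, GGGCGG, the core of a GC box, was found on either strand in those of *Sema3e*, *Sema3c*, *Nrp1* and *Plxna2*. It was in 70.5% of members' windows and in 35.7% of all windows. TTCNNNGAA, the palindrome that STAT factors bind, was found in that of *Sema3e* alone of the 7, in 3.85% of members' windows and in 8.30% of all. TATAAA was in none of the 7, in 2.56% of members' windows and in 13.6% of all. A match describes the sequence only.

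Between 19231428 and 28360592 reads were counted per culture, so that a floor of 3 counts stood at 0.0999 to 0.154 CPM (counts after scaling to a common, TMM-adjusted library size). Intervals and floors cover counting error only. *Vangl2* itself had 66, 99 and 86 counts in *WT*, 75, 48 and 69 in *KD1* and 90, 118 and 90 in *KD2*. On the log2 scale *KD1* was at -0.63 (adjusted p = 0.0058) and *KD2* at 0.05 (adjusted p = 0.81) relative to *WT*, so that transcript abundance alone cannot test how *KD2* was labelled, and protein was not measured in these files. Replicate 3 of *KD2* stood apart from replicates 1 and 2, with a chi-square per degree of freedom of 17.4 and 22.1, and replicate 1 of *WT* stood apart from replicates 2 and 3, at 13.1 and 10.7, where those were at 3.38 from each other. Values without either library are given where a call changes. Luminal markers (*Krt8*, *Krt18*, *Epcam*, *Cdh1*, *Cldn3*, *Cldn7*) summed to 1520 to 1660 CPM in *WT*, 2070 to 2140 in *KD1* and 1230 to 1430 in *KD2*. Basal markers (*Krt5*, *Krt14*, *Trp63*, *Acta2*, *Myh11*, *Oxtr*) summed to 3580 to 4020, 3850 to 3950 and 1800 to 2290 CPM, with *Acta2* and *Myh11* under 2 CPM on average in every line. Members of both lists differed in direction. From *WT* to *KD2*, mean CPM of *Krt8* went from 158 to 268 and of *Krt18* from 125 to 136, while the other luminal markers were lower. *Acta2* went from 0.165 to 1.54, while the other basal markers were lower. From *WT* to *KD1*, *Oxtr* went from 7.78 to 0.0774 CPM and *Trp63* from 196 to 325. Fibroblast, endothelial and leukocyte lists summed to at most 24.5 CPM in any culture, with *Emcn* at 0 in all 9. Of the neuron list, which summed to 69.7 to 244 CPM, nearly all was *Map2* and *Tubb3*, and *Rbfox3* and *Snap25* were at 0 in *WT* and *KD1*. The part of these markers in the results below was not tested.

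Of the 72 members, 52 passed the expression filter and were tested among 15253 genes. Genes were called where edgeR's quasi-likelihood test gave a p below 0.05 after Benjamini-Hochberg adjustment over all tested genes and the log2 fold change was beyond 1 in either direction. All comparisons with *WT* share the same 3 *WT* cultures. In *KD1*, 13 members were higher and 16 lower, or 25.0% and 30.8% of the members tested, where 9.34% and 7.49% of all tested genes were called in these directions. In *KD2*, 17 were higher and 8 lower, or 32.7% and 15.4% of those tested, against 14.5% and 6.71% of all tested genes. Between the edited lines, *KD2* had 21 members above *KD1* and 6 below it, or 40.4% and 11.5% of those tested, against 14.7% and 8.58% of all. A member that passed the filter through a line where it is high had to differ, and the members were chosen with earlier results known. These shares are therefore given as a description. The tested members that were not called numbered 23 in *KD1*, 27 in *KD2* and 25 between the edited lines. In bulk RNA, fewer cells that express a gene and less of its RNA per cell cannot be told apart. With only genes of at least 10 counts in every culture, 39 members were tested, of which *KD2* had 9 above *WT* and 5 below (23.1% and 12.8%, beside 9.54% and 4.27% of all genes tested so), and 13 above *KD1* (33.3% beside 9.60%).

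**Figure D1:**
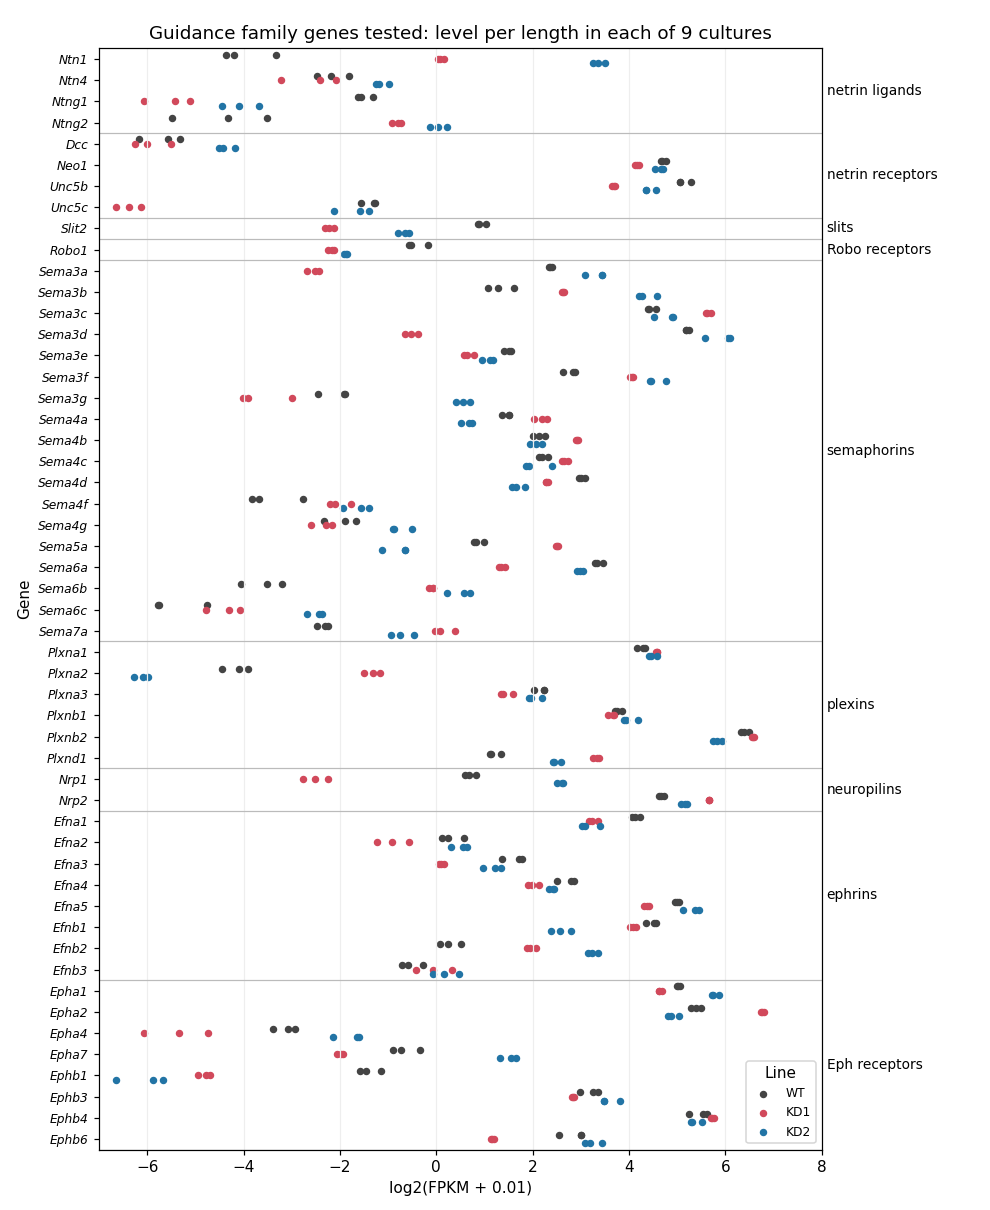
Level per length of the 52 tested members in each of the 9 cultures, as log2 of FPKM plus 0.01 on the horizontal axis, with genes in rows grouped by family and 1 point per culture coloured by line. Cultures of a line lie close together except for some genes of low level, such as *Ntng2* in *WT* (0.0122 to 0.077 FPKM). *Ntn1*, *Unc5c*, *Nrp1*, *Plxna2*, *Sema3a* and *Sema3d* are spread far apart between lines.

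Of the 20 members that were not tested, 12 had at most 3 counts in every culture, and *Sema5b* and *Unc5a* had none anywhere. The filter also kept out *Sema6d*, a transmembrane semaphorin that was present in 1 line. It had 18, 10 and 14 counts in *KD1* and no count in *WT* or *KD2*, which makes it higher in *KD1* by at least 3.86-fold over *WT* and at least 4.40-fold over *KD2*, against the floor of 3 counts per library. The receptor *Ephb2* had 14, 9 and 13 counts in *KD2*, 5, 5 and 2 in *WT* and 0, 1 and 0 in *KD1*, a ratio of *KD2* to *KD1* of 37.1 (95% interval by counting error 6.24 to 1500). *Epha8* had 6, 5 and 4 counts in *WT* and 0, 0 and 1 in *KD1*, a ratio of 17.8 (95% interval 2.74 to 751). These 3 genes were named after their counts were seen.

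Of the 6 netrin ligands, 4 were tested, of which *KD1* had 2 higher and 1 lower and *KD2* had 3 higher and 1 lower. Of all tested genes, 9.34% were called higher and 7.49% lower in *KD1*, and 14.5% and 6.71% in *KD2*. *Ntn1*, the secreted ligand of DCC, neogenin and UNC5, rose more than any other tested member in each edited line. *Ntn1* (chromosome 11, 68209364 to 68400823 of GRCm38, minus strand) was measured at 0.563, 0.280 and 0.244 CPM in *WT*, 6.61, 6.88 and 6.41 in *KD1*, and 65.0, 60.2 and 70.9 in *KD2*. The *WT* values rest on 11, 7 and 5 counts, near the floor of 3 counts, which limits how exactly the folds are known. The 3 lines did not overlap, and *KD2* stood far above *KD1*. Relative to *WT*, *KD1* was higher by 4.21 on the log2 scale (standard error, SE, 0.204, adjusted p = 5.2e-10) and *KD2* by 7.50 (SE 0.155, adjusted p = 3.3e-13). The difference between the edited lines was 3.30 (SE 0.0958, adjusted p = 1.4e-12). Per length, *Ntn1* alone made 10.4 ± 0.857 FPKM (SD, n = 3) of the 12 ± 0.989 FPKM that all netrin ligands summed to in *KD2*, where that sum was 0.684 ± 0.140 in *WT* and 1.83 ± 0.0886 in *KD1*.

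The other netrin genes were low. *Ntng2*, a membrane-anchored netrin-G, had 6, 4 and 1 counts in *WT*, 61, 53 and 59 in *KD1* and 89, 122 and 93 in *KD2*, or 3.68 (adjusted p = 3.4e-07) and 4.54 above *WT* (log2 scale, adjusted p = 1.4e-08). It shares 558 exonic bases with *6530402F18Rik* on the same strand, so reads there could belong to either gene. Its paralog *Ntng1* went the other way, with 63, 68 and 53 counts in *WT*, 3, 4 and 1 in *KD1* and 14, 12 and 6 in *KD2*. The log2 fold changes of *Ntng1* were -4.71 (SE 0.328) and -2.72 (SE 0.252). *Ntn4*, a basement membrane netrin, had 20, 16 and 16 counts in *WT*, 23, 17 and 9 in *KD1* and 38, 48 and 38 in *KD2*. *Ntn4* was called only just in *KD2*, at 1.04 (SE 0.267, adjusted p = 0.0034), and the value was 0.99 without *KD2* replicate 3 and 0.90 without *WT* replicate 2. *Ntn3* and *Ntn5* were not tested.

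Of the 4 netrin receptors tested, 2 were lower in *KD1* and 1 was higher in *KD2*. Beside these, 7.49% of all tested genes were called lower in *KD1* and 14.5% higher in *KD2*. *Unc5c*, a repulsive netrin receptor (chromosome 3, 141465216 to 141834924, plus strand), had 122, 190 and 159 counts in *WT*, 0, 1 and 2 in *KD1* and 176, 186 and 86 in *KD2*. *KD1* was at the floor, while *WT* and *KD2* overlapped. The ratio of *WT* to *KD1* was 187 (95% interval by counting error 63.5 to 909) and that of *KD2* to *KD1* 154 (52.3 to 748). Against *WT*, *Unc5c* in *KD2* was at -0.29 (SE 0.178, adjusted p = 0.16). The strand-opposite gene *Gm15688* shares 118 exonic bases with it, and whether reads were counted by strand is not given in the sources used here.

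*Unc5b*, the most abundant netrin receptor per length in *WT* at 35.3 ± 3.48 FPKM (SD, n = 3), was at 246, 208 and 208 CPM in *WT*, 79.8, 81.4 and 78.4 in *KD1*, and 128, 129 and 148 in *KD2*. In *KD1* the log2 fold change was -1.47 (SE 0.0785, adjusted p = 1.6e-09) and in *KD2* it was -0.71 (SE 0.0768, adjusted p = 1.9e-06), short of the fold limit. *Neo1*, which encodes neogenin, was at 26.2 ± 1.13 FPKM in *WT*. It stood at 225, 239 and 220 CPM in *WT* and at 161, 153 and 157 in *KD1* and 221, 226 and 202 in *KD2*. The *KD1* cultures were all below the others, by -0.54 on the log2 scale (SE 0.0600, adjusted p = 3.4e-06), which is short of the fold limit. In *KD2* the value for *Neo1* was -0.08 (adjusted p = 0.27), and it took the other sign under scaling by library size alone. *Dcc*, the classical attractive netrin receptor, had 1, 5 and 3 counts in *WT*, 2, 4 and 1 in *KD1* and 12, 18 and 9 in *KD2*, all under 1 CPM. It was called in *KD2*, at 1.87 (SE 0.452, adjusted p = 0.0023). Summed over the family, netrin receptors stood at 61.9 ± 3.37 FPKM in *WT*, 30.8 ± 0.459 in *KD1* and 46.7 ± 0.485 in *KD2* (SD, n = 3).

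In the slit and Robo pair, the ligand and receptor that were expressed both fell in both lines. *Slit2*, a secreted ligand of Robo receptors (chromosome 5, 47983138 to 48307733, plus strand), was at 51.6, 46.6 and 46.0 CPM in *WT*, 4.87, 5.15 and 5.57 in *KD1* and 17.0, 16.0 and 14.5 in *KD2*. None of the 3 lines overlapped another. *Slit2* fell by 3.21 on the log2 scale in *KD1* (SE 0.0910, adjusted p = 1.8e-12) and by 1.60 in *KD2* (SE 0.0799, adjusted p = 9.8e-10), and *KD2* was above *KD1* by 1.61 (adjusted p = 3.3e-09). *Robo1*, its receptor (chromosome 16, 72308306 to 73046095, plus strand), was at 11.1, 14.5 and 11.4 CPM in *WT*, 3.51, 3.30 and 3.63 in *KD1* and 4.41, 4.19 and 4.33 in *KD2*. *Robo1* was at -1.83 in *KD1* (SE 0.126) and at -1.52 in *KD2* (SE 0.123), and the difference between the edited lines was 0.31 (SE 0.138, adjusted p = 0.064). *Slit3* had 1 count in all 9 cultures, *Robo2* had none in *WT* and at most 2 elsewhere, and *Slit1*, *Robo3* and *Robo4* were at or under 3 counts throughout. Counting error limits what can be said of these 5 genes to the floor given above.

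Among the 20 semaphorins, 18 were tested. *KD1* had 7 higher and 4 lower (38.9% and 22.2% of those tested, beside 9.34% and 7.49% of all tested genes). *KD2* had 8 and 2 (44.4% and 11.1%, beside 14.5% and 6.71%). The 2 semaphorins furthest below *WT* in *KD1* were the secreted ligands *Sema3d* and *Sema3a*. *Sema3d* (chromosome 5, 12383385 to 12588948, plus strand) was the most abundant semaphorin in *WT*, at 312, 325 and 310 CPM, and fell to 5.43, 6.57 and 5.89 CPM in *KD1*. In *KD2* it stood at 575, 591 and 409 CPM, above every *WT* culture, with replicate 3 the lowest. The fall in *KD1* was -5.73 on the log2 scale (SE 0.144, adjusted p = 5.6e-13) and 0.73 in *KD2* (SE 0.108, adjusted p = 3.9e-05), the latter 0.91 without *KD2* replicate 3. *Sema3a*, a collapse-inducing ligand of neuropilin 1 and class A plexins (chromosome 5, 13125414 to 13602565, plus strand), followed the same order, at 71.2, 73.6 and 70.4 CPM in *WT*, 2.03, 2.28 and 2.42 in *KD1* and 151, 152 and 118 in *KD2*. *Sema3a* changed by -5.0 in *KD1* (SE 0.124, adjusted p = 5.0e-13) and by 0.97 in *KD2* (SE 0.0859, adjusted p = 2.8e-07). The *KD2* value was just short of the fold limit and passed it, at 1.10, without *KD2* replicate 3. It also passed without *WT* replicate 2 (1.01) and under scaling by library size alone (1.08). The same held with at least 10 counts in every culture (1.04) and with thinned counts (1.0). Between the edited lines the differences were 6.46 for *Sema3d* and 5.97 for *Sema3a* (adjusted p = 1.2e-13 and 5.2e-14).

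Both genes lie in an interval of chromosome 5 that holds 4 members, from the start of *Sema3d* at 12383385 to the end of *Sema3c* at 17730268, and their neighbours did not all move alike. *Sema3e*, a ligand of plexin D1 (14025276 to 14256689), was at 25.9 ± 1.34 CPM in *WT*, 14.7 ± 1.02 in *KD1* and 19.6 ± 1.55 in *KD2* (SD, n = 3), with log2 fold changes of -0.82 and -0.40 that were short of the limit. *Sema3c* (17574281 to 17730268), at the far end, was at 169, 150 and 152 CPM in *WT*, 349, 370 and 347 in *KD1* and 213, 214 and 163 in *KD2*. It rose by 1.18 in *KD1* (SE 0.0923, adjusted p = 9.2e-08), and its value of 0.33 in *KD2* was short of the limit, with cultures that overlapped those of *WT*.

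**Figure D2:**
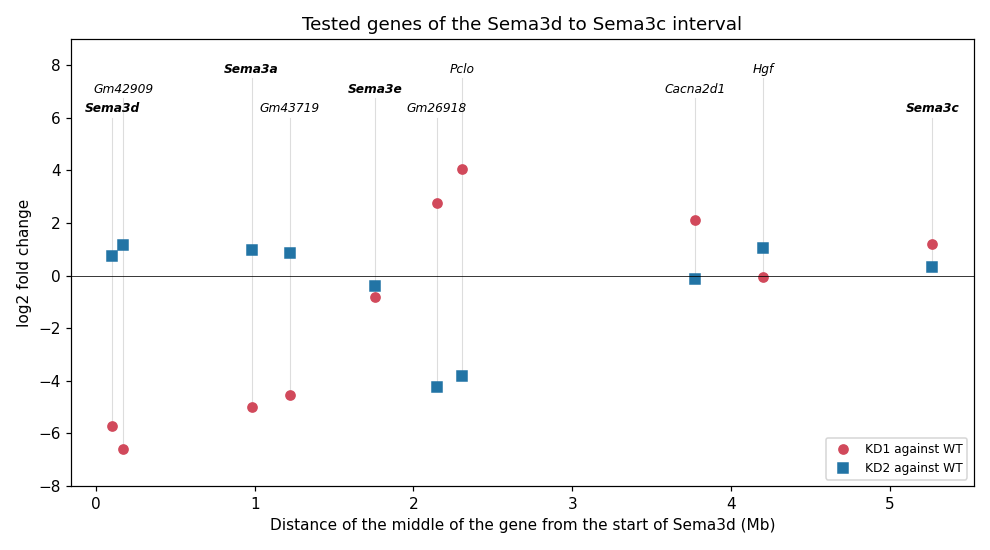
Log2 fold change against *WT* (vertical axis) of the 10 tested genes between *Sema3d* and *Sema3c*, placed by the distance of each gene's middle from the start of *Sema3d* in megabases, with circles for *KD1* and squares for *KD2* and members in bold. The 4 genes at the *Sema3d* and *Sema3a* end are far below *WT* in *KD1*, *Pclo* and *Gm26918* are above *WT* in *KD1* and below it in *KD2*, and *Sema3c* lies above *WT* in *KD1*.

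Of 75 annotated genes in this interval, 10 were tested, and the 6 that are not members are named here for their position. *Gm42909* lies within the *Sema3d* gene and *Gm43719* just beyond the end of *Sema3a*, each on the strand of that semaphorin, so that their reads may not be separate from those of *Sema3d* and *Sema3a*. These short transcripts without a known product stood at -6.58 and -4.55 in *KD1* on the log2 scale (adjusted p = 2.1e-05 and 2.4e-07) and at 1.16 and 0.86 in *KD2*, and *Gm43719* in *KD2* was at 1.06, past the fold limit, without *WT* replicate 1. *Gm42909* had no count in *KD1*, so its fitted value is no bound. Beyond *Sema3e*, *Pclo*, a scaffold of the presynaptic active zone, was at 1.38 CPM in *WT*, 23.4 in *KD1* and 0.101 in *KD2* on average, or 4.06 (adjusted p = 1.1e-11) and -3.83 relative to *WT* (log2 scale, adjusted p = 3.4e-07). *Gm26918*, annotated antisense to *Pclo*, was at 2.74 and -4.24, had no count in *KD2*, so that the second is no bound, and its reads cannot be told apart from those of *Pclo* if counting ignored strand. *Cacna2d1*, a calcium channel subunit, was at 2.13 in *KD1* and -0.14 in *KD2*, and *Hgf*, which encodes hepatocyte growth factor, at -0.06 and 1.05. The *Hgf* value in *KD2* fell short of the fold limit without *WT* replicate 1 (0.94), *KD2* replicate 1 (0.99) or *KD2* replicate 2 (0.98). The median over all tested genes of chromosome 5 was 0.01 in *KD1* and -0.20 in *KD2*.

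Elsewhere in class 3, *Sema3b* and *Sema3f*, neighbours on chromosome 9, rose in both lines. *Sema3b* was at 10.1, 14.5 and 11.6 CPM in *WT*, 29.4, 29.9 and 29.0 in *KD1* and 91.5, 87.9 and 115 in *KD2*. *Sema3b* thus rose by 1.28 in *KD1* (SE 0.127) and by 3.01 in *KD2* (SE 0.125). *Sema3f*, a ligand of neuropilin 2, went from 35.8 ± 3.44 CPM in *WT* to 86.0 ± 1.76 in *KD1* and 123 ± 16.5 in *KD2* (SD, n = 3), changes of 1.26 and 1.77. Neither gene's cultures overlapped between lines, and the 56 other tested genes between *Sema3b* and *Plxnb1* had a median of 0.02 in *KD1* and 0.33 in *KD2*. *Sema3g*, a secreted ligand known from endothelium, had 23, 29 and 16 counts in *WT*, 7, 6 and 13 in *KD1* and 163, 178 and 149 in *KD2*. The gene was thus lower in *KD1*, at -1.62 (SE 0.322, adjusted p = 6.6e-04), and higher in *KD2*, at 2.65 (SE 0.203, adjusted p = 6.4e-08). *Sema3g* lies on chromosome 14, where the median over all tested genes in *KD2* was -0.47, the opposite direction. The endothelial marker list summed to 1.43 to 2.10 CPM in *KD2* and to 2.05 to 2.49 in *WT*, but its members did not move together. *Pecam1* went from 2.16 CPM in *WT* to 0.919 in *KD2* on average. *Cdh5* went the other way, from 0.0163 to 0.677 CPM, as did *Tek*, from 0.0304 to 0.216, and *Kdr*, from 0.0 to 0.041. A link of these markers to *Sema3g* was not tested.

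Transmembrane and membrane-anchored semaphorins were mixed. *Sema5a*, which carries thrombospondin repeats, was at 32.1, 36.8 and 32.6 CPM in *WT*, 104, 107 and 106 in *KD1* and 11.8, 11.8 and 8.36 in *KD2*. The lines were fully separate, with changes of 1.64 in *KD1* (SE 0.0925, adjusted p = 2.6e-09) and -1.66 in *KD2* (SE 0.105, adjusted p = 9.9e-09). *Sema6a* was at 96.8, 88.7 and 86.6 CPM in *WT*, 23.3, 22.3 and 21.5 in *KD1* and 72.1, 69.2 and 66.5 in *KD2*. It fell by 2.02 in *KD1* (SE 0.0673, adjusted p = 9.5e-12), and in *KD2* its value of -0.39 was short of the fold limit. *Sema6b*, by contrast, had 6, 5 and 8 counts in *WT*, 102, 90 and 93 in *KD1* and 145, 138 and 130 in *KD2*, or 3.63 and 4.23 above *WT* (log2 scale, adjusted p = 2.5e-08 and 3.2e-09). *Sema6c*, under 1 CPM in every line, had 1, 4 and 1 counts in *WT*, 8, 4 and 6 in *KD1* and 27, 26 and 21 in *KD2*, and was called in *KD2* at 3.35 (adjusted p = 6.7e-06). In *KD1* it was at 1.29 (adjusted p = 0.062), which passed at 2.13 without *WT* replicate 2, a library that holds 4 of its 6 *WT* counts. Without *KD1* replicate 2 it passed as well, at 1.5.

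*Sema7a*, the GPI-anchored semaphorin that binds integrins and plexin C1, had 13, 14 and 13 counts in *WT*, 116, 81 and 85 in *KD1* and 42, 58 and 48 in *KD2*, changes of 2.55 (SE 0.216) and 1.68 (SE 0.236). In class 4, *Sema4d*, the ligand of plexin B1 and B2, was at 61.7, 65.2 and 59.7 CPM in *WT*, 37.4, 38.5 and 36.9 in *KD1* and 24.1, 22.8 and 27.4 in *KD2*. The lines were ordered without overlap, with -0.73 in *KD1*, short of the fold limit, and -1.33 in *KD2* (SE 0.0728, adjusted p = 2.4e-09). *Sema4d* lies on chromosome 13, where the median of all tested genes in *KD2* was -0.66. *Sema4g* had 32, 66 and 46 counts in *WT*, 50, 43 and 33 in *KD1* and 113, 140 and 123 in *KD2*, and was called in *KD2* at 1.20 (adjusted p = 7.0e-05). *Sema4f* rose from 7, 8 and 15 counts in *WT* to 32, 28 and 37 in *KD1* and 33, 52 and 40 in *KD2*, by 1.43 and 1.84 (adjusted p = 0.0014 and 1.0e-04). Semaphorins together summed to 109 ± 2.27 FPKM in *WT*, 109 ± 1.69 in *KD1* and 171 ± 9.36 in *KD2* (SD, n = 3), so that the sum in *KD1* lay within the spread of that in *WT* while its makeup differed, with *Sema3c* at 49.8 ± 1.81 FPKM and *Sema3d* at 0.693 ± 0.0667.

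On the receptor side, the neuropilins diverged. *Nrp1* (chromosome 8, 128358604 to 128503363, plus strand) was at 15.6, 17.1 and 14.7 CPM in *WT*, 1.96, 1.61 and 1.33 in *KD1* and 59.5, 60.6 and 55.5 in *KD2*. It fell by 3.27 on the log2 scale in *KD1* (SE 0.123, adjusted p = 3.3e-11) and rose by 1.88 in *KD2* (SE 0.0837, adjusted p = 3.2e-10). The lines were thus ordered *KD1*, *WT*, *KD2* without overlap, as for *Sema3a* and *Sema3d*, and the edited lines differed by 5.15 (SE 0.112, adjusted p = 8.4e-14). *Nrp2*, the partner of *Sema3f*, was at 312, 302 and 290 CPM in *WT*, 599, 598 and 602 in *KD1* and 424, 436 and 399 in *KD2*. Its order was *WT*, *KD2*, *KD1*, also without overlap, with 0.99 in *KD1* (SE 0.0542, adjusted p = 1.9e-09) and 0.48 in *KD2* (SE 0.0539, adjusted p = 2.9e-06). The *KD1* value of *Nrp2* sat at the fold limit and passed it under 9 alternatives, at 1.00 to 1.03. Per length, *Nrp2* made 25.4 of the 27.1 FPKM of both neuropilins in *WT*, 50.6 of 50.8 in *KD1* and 35.4 of 41.4 in *KD2*.

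Plexins held the most abundant member in *WT*, *Plxnb2*, a receptor of class 4 semaphorins and angiogenin. It was at 619, 695 and 646 CPM in *WT*, 724, 740 and 742 in *KD1* and 435, 415 and 469 in *KD2*, changes of 0.17 (adjusted p = 0.026) and -0.57 (adjusted p = 1.7e-06) that were short of the fold limit. *Plxna2*, a partner of neuropilins and class 6 semaphorins (chromosome 1, 194618218 to 194816869, plus strand), had 12, 21 and 20 counts in *WT*, 202, 150 and 167 in *KD1* and 2, 3 and 1 in *KD2*. *KD1* stood far above *WT*, at 3.03 (SE 0.186, adjusted p = 6.5e-09), and *KD2* was at the floor. The ratio of *WT* to *KD2* was 10.2 (95% interval by counting error 4.39 to 29.1) and that of *KD1* to *KD2* 84.0 (38.3 to 230.0). *Plxnd1*, the *Sema3e* receptor, was at 16.0, 18.5 and 15.8 CPM in *WT*, 75.8, 69.6 and 73.7 in *KD1* and 39.8, 39.2 and 44.2 in *KD2*, called higher at 2.12 (adjusted p = 3.0e-11) and 1.29 (adjusted p = 7.9e-09). The 4 other plexins tested, *Plxna1*, *Plxna3*, *Plxnb1* and *Plxnb2*, were called in no comparison.

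**Figure D3:**
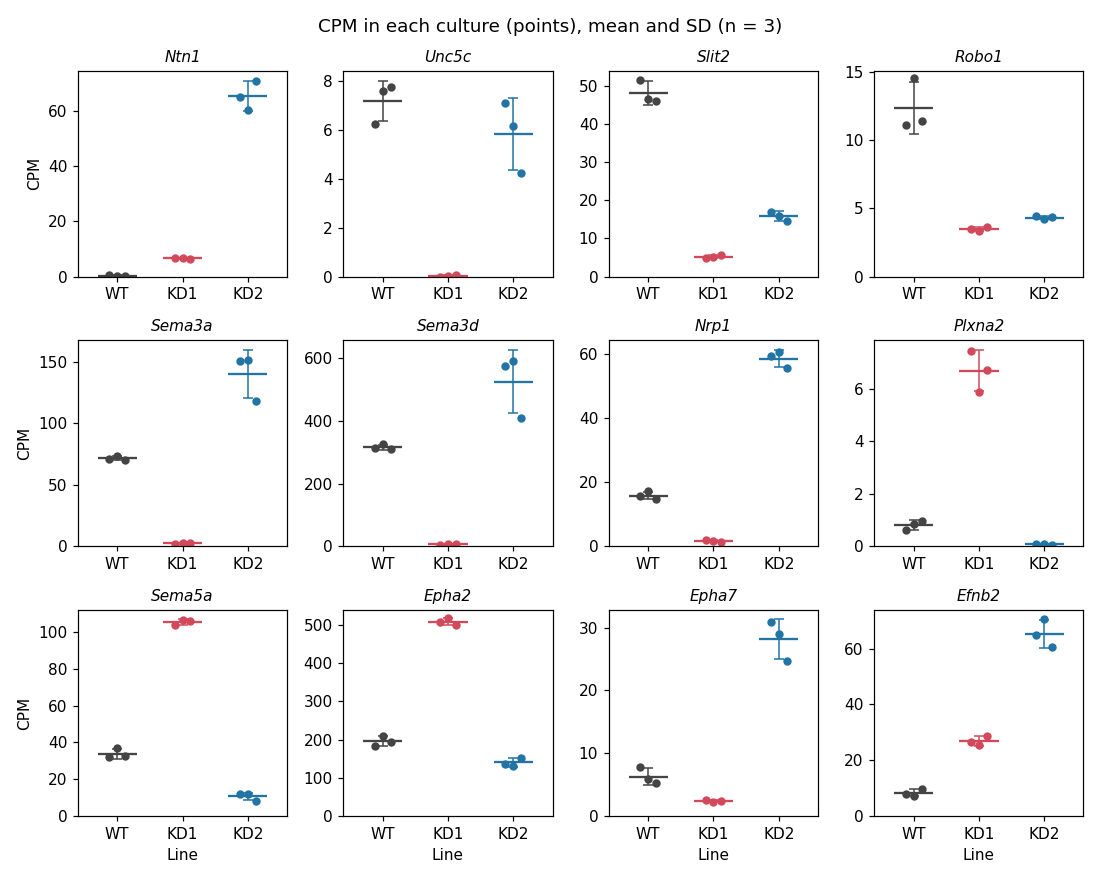
CPM (vertical axis, linear from 0) of 12 members in each culture, 1 panel per gene, with points for cultures and bars for the mean and SD of the 3 cultures of a line. *Nrp1*, *Sema3a* and *Sema3d* are ordered *KD1*, *WT*, *KD2*, *Plxna2* and *Sema5a* the reverse, and *Ntn1* and *Efnb2* rise from *WT* over *KD1* to *KD2*.

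Of the 8 ephrins, all tested, *KD1* had 1 higher and 2 lower (12.5% and 25.0%, beside 9.34% and 7.49% of all tested genes). *KD2* had 1 of each (12.5% each way, beside 14.5% and 6.71%). *Efnb2*, a transmembrane ligand of EPHB4 (chromosome 8, 8617434 to 8661242, minus strand), was at 7.99, 7.16 and 9.72 CPM in *WT*, 26.4, 25.4 and 28.8 in *KD1* and 64.8, 70.7 and 60.7 in *KD2*. The lines did not overlap, and the changes were 1.70 (SE 0.106, adjusted p = 7.8e-09) and 2.99 (SE 0.103, adjusted p = 3.4e-11). *Efnb1*, the other main transmembrane ephrin, was at 70.7, 81.8 and 79.0 CPM in *WT*, 58.4, 61.6 and 56.4 in *KD1* and 20.4, 18.0 and 24.1 in *KD2*. It fell by 1.90 in *KD2* (SE 0.0943, adjusted p = 9.2e-10), and the value in *KD1*, -0.39, was short of the fold limit. *Efnb1* is X-linked, and the median of all tested X-linked genes in *KD2* was -0.63.

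Of the 5 GPI-anchored ephrins, *Efna2* and *Efna3* were called lower in *KD1*. *Efna3* was at 6.25, 8.32 and 7.96 CPM in *WT*, 2.51, 2.71 and 2.58 in *KD1* and 5.62, 4.76 and 6.10 in *KD2*, changes of -1.53 (adjusted p = 7.8e-07) and -0.47 (adjusted p = 0.0075). Its exons overlap *Gm15998*. *Efna2* had 45, 79 and 51 counts in *WT*, 30, 36 and 22 in *KD1* and 65, 99 and 63 in *KD2*, and was called in *KD1* at -1.23 (adjusted p = 1.9e-04). *Efna1*, the main ligand of EPHA2, was at 30.5, 34.3 and 32.0 CPM in *WT*, 16.4, 18.8 and 17.1 in *KD1* and 14.9, 15.6 and 19.1 in *KD2*. Every edited culture was below every *WT* culture, at -0.89 (adjusted p = 2.0e-06) and -0.97 (adjusted p = 7.1e-07), both just short of the fold limit, and the *KD2* value was -1.06 without replicate 3 of *KD2* and -1.02 without replicate 1 of *WT*. Ephrins summed to 84.8 ± 4.64 FPKM in *WT*, 57.7 ± 1.55 in *KD1* and 74.6 ± 2.55 in *KD2* (SD, n = 3).

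Of the 14 Eph receptors, 8 were tested, of which *KD1* had 1 higher and 4 lower and *KD2* had 2 higher and 1 lower. Beside these counts, 9.34% of all tested genes were called higher and 7.49% lower in *KD1*, and 14.5% and 6.71% in *KD2*. *Epha2*, an ephrin-A receptor of epithelia, was at 183, 210 and 195 CPM in *WT*, 509, 520 and 500 in *KD1* and 136, 131 and 153 in *KD2*. The receptor was higher in *KD1* by 1.38 (SE 0.0700, adjusted p = 8.5e-10), and its value of -0.48 in *KD2* (adjusted p = 3.1e-05) was short of the fold limit. At 109 ± 2.14 FPKM (SD, n = 3), it was the most abundant member in *KD1*. *Ephb4*, the receptor of ephrin B2, was at 175, 227 and 215 CPM in *WT*, 251, 246 and 241 in *KD1* and 184, 182 and 212 in *KD2*. *Ephb4* was called in no comparison, with 0.26 in *KD1* (adjusted p = 0.021) and -0.09 in *KD2* (adjusted p = 0.35), while its ligand *Efnb2* was called higher in both lines.

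*Ephb1* (chromosome 9, 101922128 to 102354693, minus strand) fell in both lines, with 44, 62 and 63 counts in *WT*, 5, 4 and 5 in *KD1* and 0, 2 and 1 in *KD2*. In *KD1* the change was -3.81 (SE 0.295, adjusted p = 8.4e-08), and the ratio of *WT* to *KD2* was 65.1 (95% interval by counting error 21.9 to 319). *Gm26846* overlaps 152 of its exonic bases on the other strand. *Epha4* and *Epha7* were instead lower in *KD1* and higher in *KD2*. *Epha4*, which binds ephrins of both classes, had 19, 22 and 14 counts in *WT*, 6, 3 and 1 in *KD1* and 43, 75 and 52 in *KD2*, changes of -2.66 (adjusted p = 1.3e-04) and 1.41 (adjusted p = 2.5e-04). *Epha7* was at 7.73, 5.84 and 5.22 CPM in *WT*, 2.47, 2.28 and 2.42 in *KD1* and 30.9, 28.9 and 24.7 in *KD2*, changes of -1.38 (adjusted p = 6.5e-06) and 2.18 (adjusted p = 4.3e-09). For both receptors the 3 lines were separate, and the edited lines differed by 4.08 and 3.56. *Ephb6*, a receptor without kinase activity, was at 22.0, 30.3 and 30.4 CPM in *WT*, 8.34, 8.22 and 8.63 in *KD1* and 34.4, 32.0 and 41.2 in *KD2*, and was called in *KD1* at -1.72 (SE 0.132, adjusted p = 7.3e-08). In *KD2* its value was 0.37 (adjusted p = 0.012), short of the fold limit. Of the 9 other tested genes between *Ephb6* and *Epha1* on chromosome 6, 6 were called higher in *KD2*, with a median of 1.51. *Epha1*, and in class 4 the semaphorin *Sema4a*, were called between the edited lines and in neither comparison with *WT*, *KD2* minus *KD1* being 1.13 and -1.54, and are named after their values were seen.

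**Figure D4:**
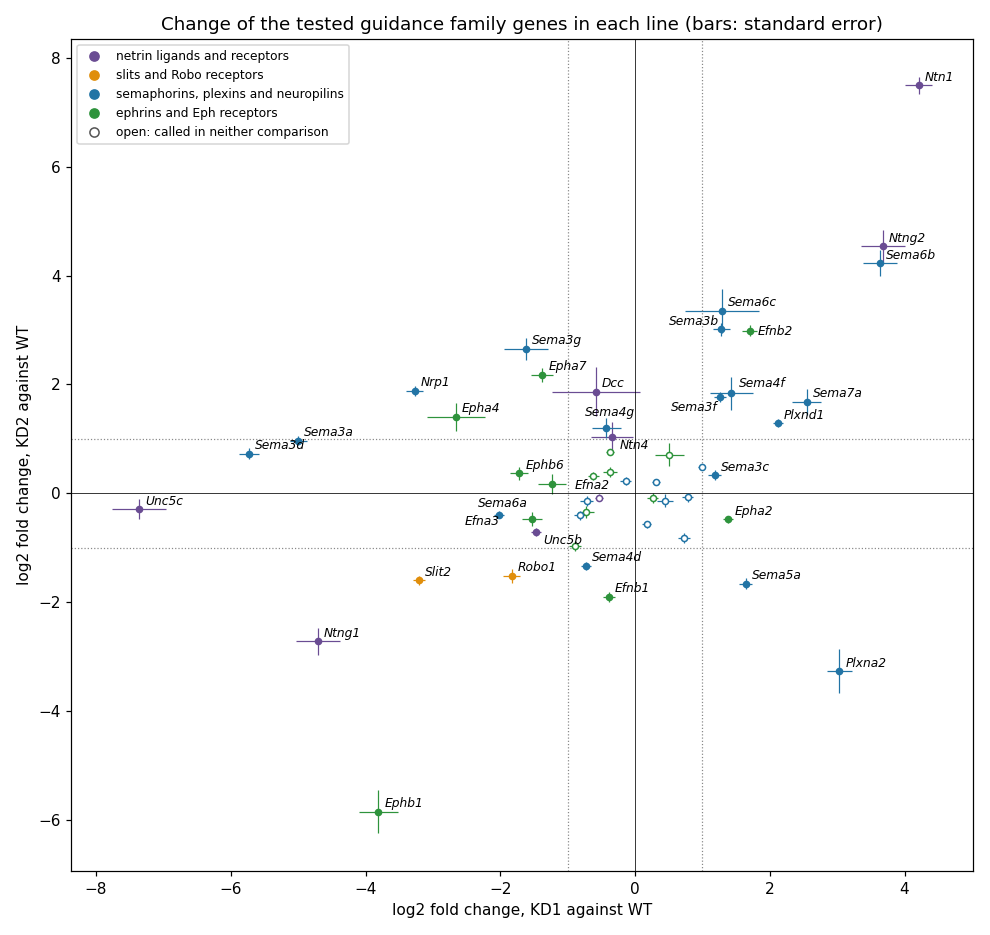
Log2 fold change of the 52 tested members against *WT* in *KD1* (horizontal axis) and *KD2* (vertical axis), coloured by ligand and receptor system, with bars for the standard error and dotted lines at the fold limit. Both axes use the same *WT* cultures. *Ntn1* lies at the upper right at 4.21 and 7.50, *Ephb1* and *Ntng1* at the lower left, *Nrp1*, *Epha4* and *Sema3g* at the upper left and *Plxna2* and *Sema5a* at the lower right.

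Ranked by level per length in *WT*, the members began with *Plxnb2* at 84.6 ± 5.03 FPKM, *Ephb4* at 44.3 ± 5.82, *Epha2* at 41.9 ± 2.94, *Sema3d* at 36.7 ± 0.976 and *Unc5b* at 35.3 ± 3.48 (SD, n = 3). *Plxnb2* stood clear of the rest, with 80.2 to 90.1 FPKM, whereas *Ephb4* (37.7 to 48.9) overlapped *Epha2* (39.1 to 45.0), and *Sema3d* (36.1 to 37.9) overlapped *Unc5b* (33.3 to 39.3). In *KD1* the order began with *Epha2*, *Plxnb2*, *Ephb4*, *Nrp2* and *Sema3c*. In *KD2* it began with *Sema3d* at 61.1 ± 11.7 FPKM, whose range of 47.6 to 68.8 took in those of *Plxnb2* and *Epha1*. At least 1 FPKM was reached by 34 members in *WT*, 31 in *KD1* and 38 in *KD2*. Levels per length use the union of annotated exons, and so depend on which transcripts the cells make.

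Other genes of these pathways were taken from 3 lists of 156 genes in all, of which 128 were tested. In *KD1*, 14 were higher and 13 lower, with a median log2 fold change of 0.04 where that of all tested genes was -0.03. In *KD2*, 14 were higher and 11 lower, with a median of -0.06 beside 0.01 for all genes. Of 80 tested intracellular effectors, *KD1* had 6 higher and 4 lower, and *KD2* 6 and 5. Of 27 other ligands and co-receptors, these counts were 5 and 6, then 6 and 4, and of 21 proteases that process or shed these proteins they were 3 and 3, then 2 and 2. In *KD1*, 7.50% of the tested effectors were higher and 5.00% lower, 18.5% and 22.2% of the other ligands and co-receptors, and 14.3% each way of the proteases, beside 9.34% and 7.49% of all tested genes. In *KD2* these shares were 7.50% and 6.25%, 22.2% and 14.8%, and 9.52% each way, beside 14.5% and 6.71%.

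Among called genes of these lists with at least 1 CPM on average in a line, *Havcr2*, an immune checkpoint receptor, was furthest above *WT* in *KD1*, from 0.299 ± 0.0955 to 26.2 ± 1.01 CPM (SD, n = 3), a log2 fold change of 6.46 (SE 0.189). *Adam19*, a membrane metalloprotease, and *Mmp9*, a secreted one, followed at 4.86 and 4.50. Furthest below were *Megf10*, a phagocytic receptor, at -4.59, *Dpysl3*, a collapsin response mediator, at -3.48, and *Pcsk6*, a proprotein convertase, at -2.56. Both *Megf10* and *Dpysl3* were higher in *KD2* instead, by 1.24 and 2.04 (adjusted p = 4.0e-07 and 2.3e-06). In *KD2*, *Gpc3*, a glypican, at 2.88, *Ablim1*, an actin-binding protein related to the netrin effector UNC-115, at 2.83, and *Sh2d3c*, an Eph receptor adaptor, at 2.83 rose most. *Flrt2*, a ligand of UNC5 receptors, at -2.55, *Pcsk6* at -2.06 and *Lrig3* at -1.67 fell most. Some genes under 1 CPM in every line are named after their values were seen. *Srgap1*, a GTPase-activating protein downstream of Robo receptors, was called lower in *KD1* and *KD2*, at -2.42 and -2.39. Its paralogs *Srgap2* and *Srgap3*, at 68.1 and 39.2 CPM in *WT*, were not called. *Srgap2* was at 0.22 in *KD1* and 0.29 in *KD2*, and *Srgap3* at -0.04 and 0.86. *Pcsk5* went from 20, 15 and 13 counts in *WT* to 1, 0 and 0 in *KD1*. *Fes* was at -2.32 in *KD2*, and *Arhgef15* was called higher in *KD1*, at 1.23. *Flrt2* also fell in *KD1*, from 2.67 ± 0.364 to 0.576 ± 0.206 CPM (SD, n = 3).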

How the data were processed

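The authors deposited raw counts of reads per gene for 9 cultures. Per the methods and labels, poly-A RNA was sequenced in paired reads, which the authors filtered with fastp at an average quality of 20, mapped to GRCm38 with HISAT2 and counted over exons with featureCounts; tool versions and strand handling are not given in the sources used here. Lines and replicate numbers came from the labels, and 0 columns were left out. Members and gene lists were chosen with earlier results of these data known. Counts were tested with edgeR 4.0.16 in R 4.3.3 (TMM scaling, expression filter on the 3 lines, 1 quasi-likelihood fit of all cultures, no block), with Benjamini-Hochberg adjustment over 15253 genes. SE is the absolute log2 fold change over the root of F. FPKM is CPM per kilobase of exon union in GENCODE M21, to which 53456 of 55228 names matched. Against a line with no count, folds use a floor of 3 counts per library. With 1 to 3 counts per library they are ratios of summed CPM with exact 95% intervals.

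The genes named are the members called against *WT* with at least 1 CPM in a line, the 5 most abundant in *WT*, 20 members listed whatever their values, and the 3 largest rises and falls among called genes of the pathway lists with at least 1 CPM in a line, in each comparison with *WT*. Alternatives were DESeq2 1.42.0, other scalings and filters, thinned counts, only the 6 cultures compared, the replicate block, the adjusted p alone, and leaving out each culture. The script was tested on simulated data. Every pair of replicates differed beyond sampling noise.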

Additional observations from a re-analysis of the deposited data

Results flagged for a closer look

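For 27 members, the change against *WT* differed between the edited lines, at an adjusted p under 0.05 and a log2 difference above 1 in edgeR's quasi-likelihood test of *KD2* against *KD1*, and they are listed here for that reason. Values are log2 fold changes in *KD2* minus those in *KD1*, and 14.7% of all tested genes were called higher and 8.58% lower in this comparison.

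Among netrins and their receptors, the difference was 3.30 for *Ntn1*, 1.38 for *Ntn4*, 1.99 for *Ntng1*, 2.45 for *Dcc* and 7.07 for *Unc5c*, and it was 1.61 for *Slit2*. In the semaphorin system it was 5.97 for *Sema3a*, 1.74 for *Sema3b*, 6.46 for *Sema3d*, 4.27 for *Sema3g*, 1.63 for both *Sema4g* and *Sema6a*, 2.06 for *Sema6c* and 5.15 for *Nrp1*. The same system held negative differences, of -1.54 for *Sema4a*, -3.30 for *Sema5a* and -6.30 for *Plxna2*. Among ephrins and Eph receptors it was 1.40 for *Efna2*, 1.07 for *Efna3*, 1.29 for *Efnb2*, 4.08 for *Epha4*, 3.56 for *Epha7*, 1.13 for *Epha1* and 2.09 for *Ephb6*, and below 0 for *Efnb1* at -1.51, *Epha2* at -1.86 and *Ephb1* at -2.05. For *Unc5c*, *Plxna2* and *Ephb1*, 1 of the edited lines had at most 3 counts in each culture, so that the fitted difference depends on the prior count. The ratio of summed CPM between the edited lines was 154 for *Unc5c* (95% interval by counting error 52.3 to 748), 84.0 for *Plxna2* (38.3 to 230.0) and 4.53 for *Ephb1* (1.27 to 24.6). Each edited line is 1 clone, so a difference between guides and a difference between clones cannot be told apart.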

How the results depend on the processing

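Counts of called members moved most with the fold limit and the filter. With the adjusted p alone, 20 members were higher and 26 lower in *KD1*, 28 and 17 in *KD2*, and *KD2* had 32 above *KD1* and 15 below it. Dropping the fold limit adds calls among all genes too. The share of all tested genes under that rule was not computed, so these counts have no background beside them. With at least 10 counts in every culture, *KD2* had 9 above *WT* and 5 below, and 13 above *KD1*, of 39 members then tested. The shares of those tested were 23.1%, 12.8% and 33.3%, beside 9.54%, 4.27% and 9.60% of all genes tested. Under every other alternative the counts stayed within 1.5 times those of the report. Leaving out each culture gave 13 to 16 higher and 16 to 17 lower members in *KD1*, 17 to 18 and 8 to 9 in *KD2*, and 21 to 22 and 6 to 7 between the edited lines.

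Single genes were followed under the alternatives in the comparisons with *WT* only, and not between the edited lines. Of 1948 such values, 1910 kept their direction and their side of the limits. Another 20 passed the limits newly, 8 no longer passed, and 10 changed sign. All those that changed sign were near 0. In *KD2*, *Ephb4* was at 0.02 and *Neo1* at 0.03 under scaling by library size alone, which moved the median of all genes to 0.119, and *Ephb4* ran from -0.20 to 0.00 with a culture left out. Thinning the counts put *Cacna2d1* in *KD2* and *Hgf* in *KD1* at 0.05 each. With a culture left out, *Cacna2d1* in *KD2* ran from -0.34 to 0.02, *Hgf* in *KD1* from -0.22 to 0.08 and *Vangl2* in *KD2* from -0.04 to 0.13. The cause of these changes was not tested.

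Replicate numbers are shared between lines, but same-numbered cultures deviated together no more than others (correlation -0.065 to 0.079, beside -0.1 to 0.11). With 3 cultures per line this cannot show that they were unpaired, and the labels do not say. With the replicate block, 13 members were higher and 16 lower in *KD1*, 17 and 8 in *KD2*, and 21 and 6 between the edited lines, as without it. Depth limits the 12 members with at most 3 counts in every culture.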
